A study of Drosophila melanogaster with 2 samples.

Results

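Hand is a basic helix-loop-helix transcription factor expressed in the heart, lymph gland and gut muscle of fly embryos, and its binding along the genome was assayed here at 80 nuclear genes of the respiratory chain and the ATP synthase. The members were the protein-coding genes on the main chromosome arms whose symbol starts with ND-, UQCR, COX or ATPsyn, which made 80 of 13945 protein-coding genes. The members were picked by name and not by a measured value, but with earlier results of these data known. They comprised 40 genes of complex I (ND-), 9 of complex III (UQCR), 16 of complex IV (COX) and 15 of the ATP synthase (ATPsyn). Whole embryos, 6 to 24 hours old and of both sexes pooled, came from a transgenic fly line that carries Hand with a C-terminal green fluorescent protein (GFP), and chromatin was immunoprecipitated with an antibody against GFP and sequenced. There were 2 biological replicates of this one group, labelled 2 and 3, with no other genotype or treatment, so no contrast between conditions existed. In whole embryos, binding in few cells and weak binding in many cells cannot be told apart.

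Complex I passes electrons from NADH to ubiquinone, complex III passes them on to cytochrome c, complex IV passes them to oxygen, and the ATP synthase uses the proton gradient that these complexes build to make ATP. Their subunits are encoded partly by mitochondrial DNA and mostly by the nucleus, and the nuclear genes are active in nearly all cells, with high demand in muscle. Several nuclear subunits have a second copy whose symbol ends in L, and many such copies in flies are expressed mainly in testis.

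The values were the authors' own peaks. A thresholded list of 3310 peaks on the dm6 build had passed the authors' test of reproducibility between replicates (IDR). A full pooled list and 2 replicate lists held 30000 entries each, named by the authors as peaks and background for that test. Most entries were weak, and one below the threshold may be background rather than Hand binding. The signal of a peak is the value that the calling program gave it relative to the control, and it has no error, since the thresholded list pools both replicates. The read depth is unknown. In the 90 kb centred on Hand, the tagged gene, replicate 2 listed 4 peaks and replicate 3 listed 36, and whether the library labelled replicate 2 carries the tagged Hand cannot be settled from peak lists. The pooled and thresholded values rest on both libraries, so values of replicate 2 are given as those of the library with that label, and the main shares are also given for each replicate without the other.

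The sequences under 5 member peaks are shown first. They are the member peak of highest signal and, for each complex, a peak whose nearest transcription start site (TSS) was that of the member, the strongest such peak except in complex IV, where COX7C is described further on without its sequence. Each line gives the 50 bp on either side of the summit from the RefSeq Release 6 genome (dm6), 5′ to 3′ on the strand of the member. Capitals mark the words sought, of which these windows held an E-box (CANNTG, the class of word bound by basic helix-loop-helix factors) and a GATA word (GATAA).

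ND-ASHI, chrX:6679336-6679436, minus strand: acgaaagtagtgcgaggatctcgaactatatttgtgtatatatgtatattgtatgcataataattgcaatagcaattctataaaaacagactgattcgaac
ND-42, chr3R:22027628-22027728, plus strand: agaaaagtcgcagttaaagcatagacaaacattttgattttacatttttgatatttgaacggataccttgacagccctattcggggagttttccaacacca
UQCR-C2, chr3L:16584440-16584540, plus strand: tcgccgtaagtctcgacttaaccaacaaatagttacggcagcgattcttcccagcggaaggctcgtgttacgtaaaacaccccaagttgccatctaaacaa
COX7AL2, chr2L:2196792-2196892, minus strand: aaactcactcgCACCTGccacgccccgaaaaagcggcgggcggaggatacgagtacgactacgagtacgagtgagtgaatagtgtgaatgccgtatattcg
ATPsynC, chr3R:31219352-31219452, minus strand: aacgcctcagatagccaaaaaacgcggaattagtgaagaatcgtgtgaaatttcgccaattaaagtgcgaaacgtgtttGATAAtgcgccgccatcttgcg

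The ND-ASHI window had 69.3% A or T, and those of ND-42, UQCR-C2, COX7AL2 and ATPsynC had 63.4%, 52.5%, 45.5% and 55.4%. Over the 20 thresholded summits assigned to members the median was 66.8%, beside 66.3% over all 3310.

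A minority of respiratory genes had a thresholded peak, and their share was not clearly set apart from that of all genes. Of their 20 peaks, 12 lay closer to the start of a neighbour, a share not computed for the peaks of all genes. Of the 80 members, 13 (16.2%, 95% Wilson interval 9.75% to 25.8%, with genes taken as independent) had a thresholded summit inside the gene or at most 2 kb away, beside 25.7% of all protein-coding genes, a share that the interval still holds. Within 500 bp of one of their own TSSs, 5 members (6.25%) had one, beside 13.3% of all genes. By nearest TSS, 8 members (10%) were the gene nearest to some thresholded summit, beside 16.3%. The 3310 strongest peaks of replicate 2 alone reached 14 members (17.5%, beside 24.5% of all genes) and those of replicate 3 alone reached 15 (18.8%, beside 26.3%). In both replicates 11 members were reached, and all 11 were among the 13 of the thresholded list.

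Member genes are short. Their median length was 1092 bp against 2166 bp for all genes, with a range from 443 to 41305 bp. Among genes of at most 2000 bp, 8 of 65 members (12.3%) had a thresholded peak, beside 16.7% of all genes of that class, and among longer genes 5 of 15 members (33.3%), beside 33.6%. Another protein-coding gene lay within 2 kb of 74 of the 80 members.

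**Figure D1:**
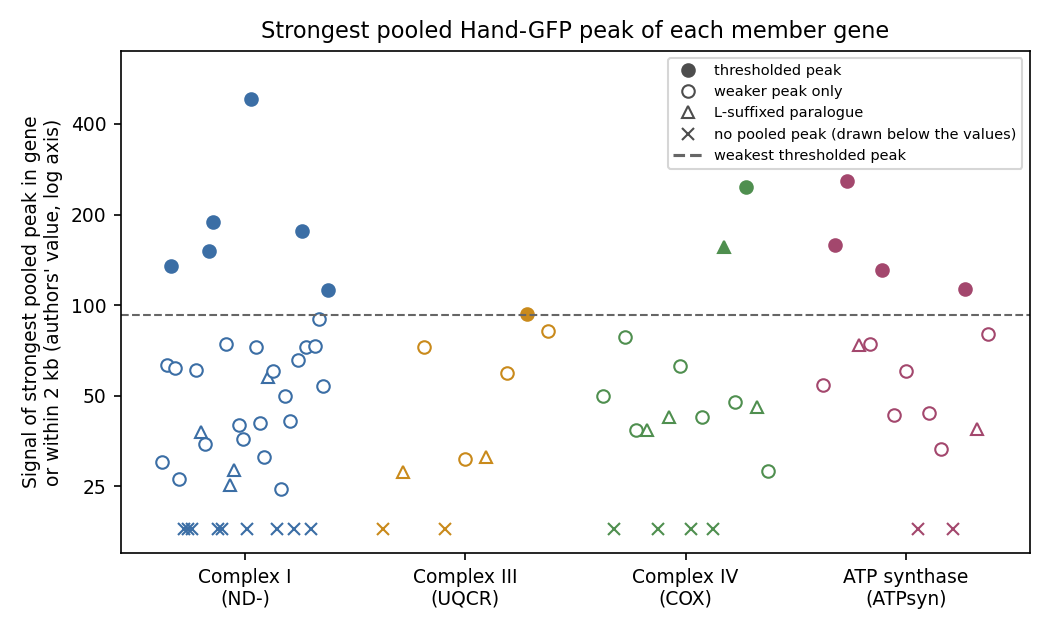
Signal of the strongest pooled peak in each member gene or within 2 kb, by complex, on a log axis. Filled symbols are the 13 members with a thresholded peak, open symbols have weaker peaks only, triangles are L-suffixed paralogues, crosses have no pooled peak, and the dashed line is the weakest thresholded peak (92.55).

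Complex I had 6 of its 40 genes with a thresholded peak (15%, beside 25.7% of all genes), and the strongest of all member peaks was among them. ND-ASHI, an accessory subunit gene, had a peak of pooled signal 485, rank 148 of 3310, at X 6679255-6679515. Replicate 2 gave it 168 and replicate 3 gave it 314. The summit lay 268 bp upstream of the ND-ASHI start and 254 bp upstream of a start of Fum1, the fumarase gene of the citric acid cycle, between these opposed starts and within an intron of a longer Fum1 transcript. It was 1.88 times the signal of the next member peak.

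ND-42, another accessory subunit gene, had 2 overlapping thresholded peaks with summits 199 bp apart. The stronger, at 3R 22027261-22027696, had signal 189, with 60 in replicate 2 and 123 in replicate 3. Its summit was 230 bp upstream of ND-42 and 1 bp from the start of Cchl, which codes for cytochrome c haem lyase, the enzyme that attaches haem to cytochrome c. The weaker had signal 129, with 54.9 and 74 in replicates 2 and 3, and its summit was 31 bp upstream of the ND-42 start, between the genes. These genes too are arranged head to head.

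ND-B22 had 1 peak of signal 176, with 61.6 in replicate 2 and 119 in replicate 3. Its summit was 1861 bp from the ND-B22 start and 39 bp from that of CG31855, so the member was reached only by the 2 kb window. ND-SGDH had a peak of signal 96.7 at 121 bp upstream of its own start, with 47.5 and 47 in replicates 2 and 3. Its other peak, of signal 112, lay in an intron of RhoGAP68F, 900 bp upstream of ND-SGDH, and replicate 3 had no summit within 100 bp of it but one of 63.7 within 250 bp.

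The peaks of the other complex I genes were nearer to other starts. ND-39 had a pair of peaks of signal 151 and 105 in introns of both ND-39 and ZnT77C, a zinc transporter gene that overlaps it, and the stronger summit was 53 bp from the ZnT77C start. ND-15, the longest member with 41305 bp, had 3 peaks of signal 135, 116 and 101. They lay 13840 to 17272 bp from its nearest start and were nearest to the starts of CG3164 and Gs1, a glutamine synthetase gene.

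The nuclear-encoded core subunits of complex I, those with bacterial counterparts, are a small set picked after the values were seen. Of these 7 genes, ND-75, ND-51, ND-24, ND-49, ND-30, ND-23 and ND-20, 0 had a thresholded peak, beside 25.7% of all genes, and 4 had a weaker pooled peak, too few genes to set apart from the rest. ND-51, which binds NADH, had the strongest, with pooled signal 74.1 at 136 bp upstream of its start, and 29.9 and 48.8 in replicates 2 and 3. ND-24 followed with 60.9 at 12 bp upstream, and 14.1 and 54.2 in the replicates. ND-75 had 40.1 and ND-30 had 34.7.

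In complex III, 1 of 9 genes (11.1%) had a thresholded peak, beside 25.7% of all genes. UQCR-C2, a core protein of the complex, had signal 93.6 and rank 3230, near the end of the list, 217 bp downstream of its start in an intron. Replicate 2 had 35.7 there, and replicate 3 had no summit within 100 bp but one of 55 within 250 bp. UQCR-C2 was the one member of the 13 that the 3310 strongest peaks of either replicate alone did not reach. UQCR-Q and UQCR-14, which code for small subunits, came next in the pooled list, UQCR-Q with 81.8 at 1232 bp from its start and UQCR-14 with 72.7 at 6 bp. UQCR-C1, the partner core protein, had a pooled peak of 59.4 at 3896 bp from its nearest start and one of 37.7 at 48 bp upstream of it.

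In complex IV, 2 of 16 genes (12.5%) had a thresholded peak, beside 25.7% of all genes. In neither did a thresholded summit lie within 500 bp of the gene's own start, beside 13.3% of all genes with one there. COX7C, a small subunit gene, had a peak of signal 246 at 2R 10046150-10046585, with 95.5 in replicate 2 and 152 in replicate 3. It lay 1985 bp upstream, in an intron of the neighbour oys. COX7AL2, a copy of COX7A, had 3 peaks of signal 156, 137 and 96.7, of which the first was in its own intron and the others, whose summits were 289 bp apart, lay upstream. COX7AL2 was the nearest start for all 3. The first had 76.4 in replicate 2 and 96.7 in replicate 3, the second 32.7 and 103, and the last 47.9 in replicate 2 with no summit within 100 bp in replicate 3. Of the genes without a thresholded peak, COX5A had the strongest pooled peak with 78.5 at 144 bp downstream of its start, then COX6B with 62.8 at 137 bp and COX4 with 49.9 at 418 bp.

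The ATP synthase had 4 of 15 genes (26.7%, Wilson interval 10.9% to 52%) with a thresholded peak, beside 25.7% of all genes. For 1 of the 15 (6.67%) a thresholded summit lay within 500 bp of the gene's own start, beside 13.3% of all genes. ATPsynC codes for the subunit that forms the rotor ring in the membrane. Its peak at 3R 31219184-31219619 had signal 159, with 53.9 in replicate 2 and 99.5 in replicate 3, and the summit was 157 bp downstream of the start, in an exon. ATPsynCF6, a gene of the peripheral stalk, had signal 258 in an intron of Sec13, a gene of the vesicle coat, 1071 bp upstream. Replicate 2 had 87.6 there, and replicate 3 had no summit within 100 bp but one of 166 within 250 bp. ATPsynE, of the membrane part, had signal 131, with 53 and 79.5 in replicates 2 and 3, and its summit was 161 bp from the start of spn-B, a gene of meiotic DNA repair. ATPsyndelta, of the central stalk, had 113, with 31.8 and 68.6, in an intron of Ypel. The catalytic subunit gene ATPsynbeta had no thresholded peak, and its strongest pooled peak had signal 33.2, while replicate 3 listed one of 66.8 within 500 bp of its start. ATPsyngamma, the rotor shaft, had 80.1 at 60 bp downstream of its start, ATPsynD had 74.2 and the copy ATPsynCF6L had 74.

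**Figure D2:**
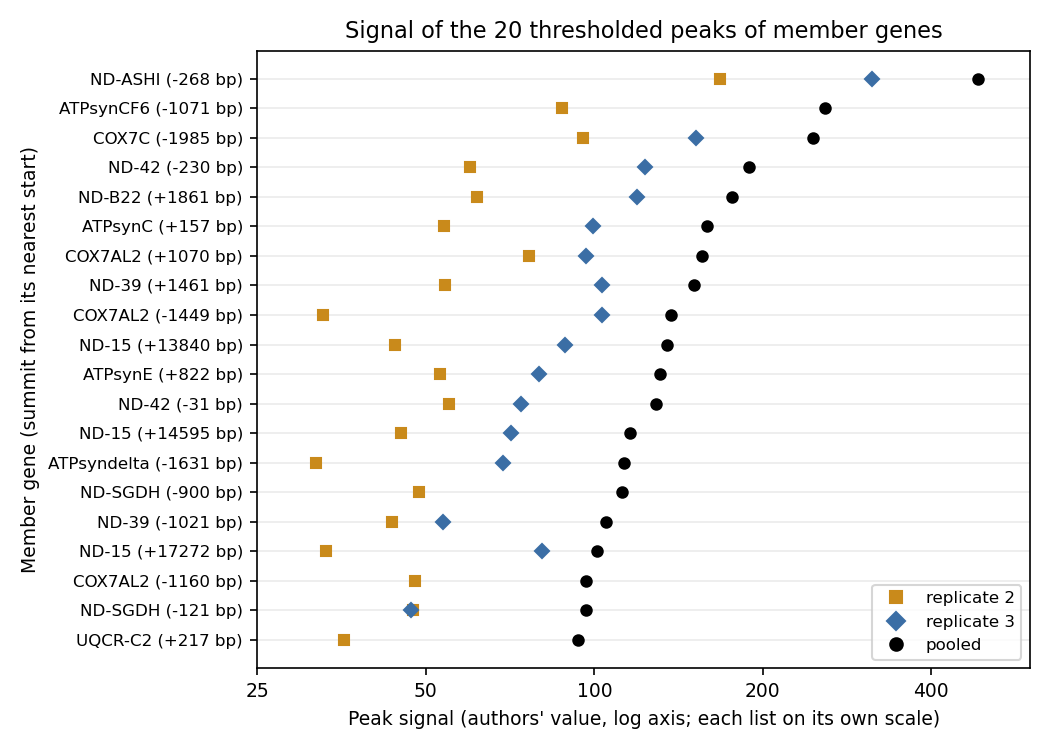
Signal of each of the 20 thresholded peaks of member genes in the pooled list (circles) and, where a summit lay within 100 bp, in replicate 2 (squares) and replicate 3 (diamonds), on a log axis. Labels give the member and the summit's distance from its nearest start. ND-ASHI stands highest in every list, and 4 peaks have no replicate 3 summit within 100 bp.

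The 20 member peaks were 20 distinct summits, with none shared by a pair of members. A replicate 2 summit lay within 100 bp of all 20 and a replicate 3 summit within 100 bp of 16, or 80% for both replicates, beside 91.1% of all thresholded peaks. Their median pooled signal was 133.1, beside 136.9 over the 3075 summits assigned to any gene, and their range was 93.61 to 485.2, in a list that runs from 92.55 to 2061. By location, 11 (55%) were promoter summits, within 500 bp of some TSS, beside 49.6% of all thresholded summits. Another 7 (35%) were intronic, beside 35.3%, 2 (10%) were intergenic, beside 13.7%, and 0 were exonic outside promoters, beside 1.45%. The nearest start was a member's own for 8 summits and another gene's for 12, with no matching count over all genes.

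In the full lists, which include the thresholded peaks and background, the share of respiratory genes with a peak was close to that of all genes. By the same 2 kb rule the full pooled list reached 63 of 80 members (78.8%, Wilson interval 68.6% to 86.3%), beside 74.4% of all genes. In the full list of replicate 2 this held for 60 (75%), beside 76.9%, and in that of replicate 3 for 66 (82.5%), beside 74.6%. Of the 67 members without a thresholded peak, 50 (74.6%) had a weaker pooled peak, beside 65.5% of all 10366 genes without one. Within 500 bp of an own start, a pooled summit was found for 43 members (53.8%, beside 48.9% of all genes). Such a summit was found for 38 in replicate 2 (47.5%, beside 43.5%) and for 48 in replicate 3 (60%, beside 50.9%).

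Start-site peaks of members without a thresholded peak were weak, with a median pooled signal of 43.5 and a range of 24.5 to 90.18, beside a median of 45.26 for all such genes. ND-MWFE, a small accessory subunit gene of complex I, stood just outside the list with signal 90.2 and rank 3468 at 205 bp upstream of its start, with 42.1 in replicate 2 and 56.1 in replicate 3. ND-51 and ND-MNLL followed within complex I, ND-MNLL with 73.3 at 112 bp upstream. In all 3 full lists, 22 of the 67 members without a thresholded peak (32.8%) had a summit within 500 bp of their start, beside 22.9% of all genes without one. They included COX4, COX5A, COX6B, COX7A, COX8, UQCR-14, UQCR-C1, UQCR-Q, ATPsynB, ATPsynF, ATPsynG and ATPsyngamma. At the other end, 9 members (11.2%) had no summit within 2 kb in any full list, beside 15.2% of all genes, namely ND-20, ND-20L, ND-49, ND-AGGG, ND-B17.2, ND-MLRQ, UQCR-11, COX4L and ATPsynGL.

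Start-site summits of the full lists, thresholded ones included, were common at the members without the L suffix and rare at the L-suffixed copies. This start-site split was chosen after seeing the data. The copies numbered 21, and ND-MNLL, named after a human subunit, was not counted among them. A pooled summit lay within 500 bp of an own start for 40 of the 59 other members (67.8%, Wilson interval 55.1% to 78.3%) and for 3 of the 21 copies (14.3%, 4.98% to 34.6%), beside 48.9% of all genes. Replicate 2 alone had 35 of 59 (59.3%) and 3 of 21, beside 43.5% of all genes. Replicate 3 alone had 45 of 59 (76.3%) and 3 of 21, beside 50.9%. Only COX7AL2 was among the 3 copies in all of these lists. The other copies were ND-B14.5AL and ATPsynepsilonL in the pooled list, ND-B14.5AL and COX5BL in replicate 2, and COX7AL and COX7CL in replicate 3. Thresholded peaks within 2 kb were found for 12 of 59 (20.3%) and 1 of 21 (4.76%), beside 25.7% of all genes. Within 500 bp of a start they were found for 5 of 59 (8.47%) and 0 of 21, beside 13.3%. The copies were also shorter, with a median of 703 bp against 1178 bp, and 3 of 21 had a head-to-head neighbour against 35 of 59, and the part of either in the difference was not tested.

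**Figure D3:**
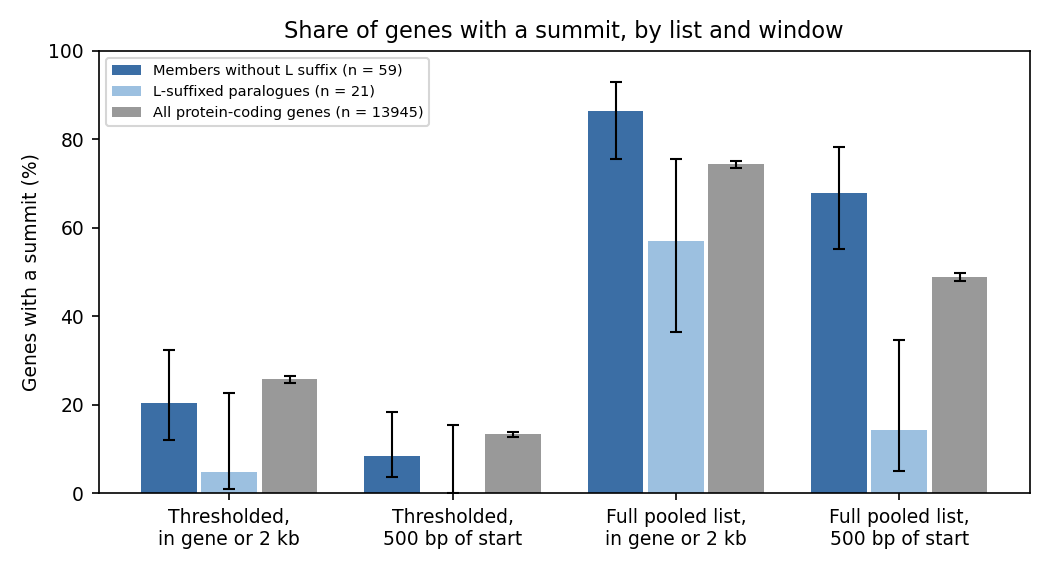
Share of genes with a summit, in percent, for members without the L suffix, L-suffixed paralogues and all protein-coding genes, under 2 lists and 2 windows. Bars start at 0 and error bars are 95% Wilson intervals over genes. The widest gap is that of the full pooled list within 500 bp of a start, 67.8% against 14.3%.

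For 17 copies the base symbol was itself a member. In the pooled list, the base gene had a start-site summit and the copy had none in 10 of these pairs. In 2 both had one, in 5 neither had, and in 0 the copy alone had one. The 2 were COX7A with COX7AL2 and ND-B14.5A with ND-B14.5AL. The 10 pairs included COX4 and COX4L, COX7A and COX7AL, COX7C and COX7CL, ND-24 and ND-24L, UQCR-14 and UQCR-14L, and ATPsynCF6 and ATPsynCF6L. Base genes with more than 1 copy (COX7A, ND-51) count in more than 1 pair. Some pairs differed in the replicate lists. In replicate 2, COX5BL had a start-site summit (17.8) and COX5B had none. In replicate 3, COX7AL (14.8) and COX7CL (20.8) had one, as did COX7A (33.4) and COX7C (41.9).

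The promoters of COX7A and its copy COX7AL are shown for this contrast, picked after their values were seen. Each is the 250 bases before the first annotated start and the 50 from it on, from the same genome, 5′ to 3′ on the gene's strand. Capitals mark E-boxes (CANNTG), the word TATCGATA bound by the factor DREF and the word GGTCACAC bound by M1BP, each on either strand.

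COX7A, chr3R:8340994-8341293, minus strand: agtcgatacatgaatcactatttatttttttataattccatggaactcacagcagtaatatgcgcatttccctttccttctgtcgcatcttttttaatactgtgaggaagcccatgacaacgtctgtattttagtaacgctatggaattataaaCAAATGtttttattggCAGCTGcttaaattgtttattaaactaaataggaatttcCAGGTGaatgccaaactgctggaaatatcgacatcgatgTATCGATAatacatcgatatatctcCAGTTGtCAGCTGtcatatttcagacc
COX7AL, chr3R:8343419-8343718, plus strand: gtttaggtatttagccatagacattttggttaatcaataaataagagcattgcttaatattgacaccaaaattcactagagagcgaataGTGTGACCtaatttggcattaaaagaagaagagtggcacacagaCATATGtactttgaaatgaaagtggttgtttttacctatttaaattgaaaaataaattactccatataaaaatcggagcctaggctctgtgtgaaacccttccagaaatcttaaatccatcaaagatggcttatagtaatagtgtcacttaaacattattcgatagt

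COX7A had its pooled summit 22 bp upstream of the start with signal 42.6, and 20.1 and 33.4 in replicates 2 and 3. COX7AL had no pooled summit within 500 bp of a start, and one of 14.8 in replicate 3. The COX7A promoter held 5 E-boxes and 1 DREF word, and that of COX7AL held 1 E-box, 0 DREF words and 1 M1BP word. This pair does not stand for the groups. An E-box was in 44 of the 59 members without the L suffix (74.6%) and in 18 of the 21 copies (85.7%). The M1BP word was in 14 of the 59 and 1 of the 21.

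Words were counted over all member promoters, defined in the same way, which had a median of 66.2% A or T, beside 62% over all promoters, and its part in the counts was not tested. The M1BP word GGTCACAC was in 15 of 80 (18.8%), beside 1074 of 13945 (7.7%). It was in 14 of the 59 members without the L suffix (23.7%) and 1 of the 21 copies (4.76%). The DREF word TATCGATA was in 9 of 80 (11.2%), beside 9.36%, with 9 of the 59 (15.3%) and 0 of the 21 copies, too few copies to set apart. The E-box CANNTG was in 62 (77.5%), beside 77.2%, and CATCTG, the E-box sought for Hand with its partner Daughterless, in 10 (12.5%), beside 11.3%. The words for ETS factors (CCGGAA, 3.75%), forkhead factors (GTAAACA, 7.5%), the GAGA factor (GAGAG, 21.2%) and GATA factors (GATAA, 56.2%) stood beside 6.78%, 9.19%, 29.7% and 55.2% of all promoters. An NRF-1 type word (GCATGCGC) and the nuclear respiratory gene element (NRG) were each in 0 of 80, beside 1.05% and 0.158%. CATCTG is one form of CANNTG, so their counts overlap.

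Within 50 bp of the 20 member summits, CANNTG occurred at 6 (30%), beside 34.7% of all 3310 summits, and CATCTG at 0, beside 2.66%. GATAA occurred at 7 (35%), beside 23.3%, GAGAG at 4 (20%), beside 13.9%, and GTAAACA at 1, beside 3.9%. The words for DREF, M1BP, ETS factors and NRF-1 and the NRG element occurred at 0. Of the 15 members with the M1BP word in the promoter, 10 (66.7%) had a pooled summit within 500 bp of a start, beside 66.9% of all genes with the word. Of the 62 members with a promoter E-box, 29 (46.8%) had one, and of the 18 without it 14 (77.8%), beside 48.7% and 49.6% of all genes. Among members without the L suffix these were 26 of 44 (59.1%) and 14 of 15 (93.3%).

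Head-to-head arrangement was frequent among members. An opposite-strand start within 500 bp upstream was found for 38 of 80 (47.5%), beside 27.4% of all genes. Of these 38, 26 (68.4%) had a pooled summit within 500 bp of a start, beside 69.6% of all head-to-head genes, and of the other 42, 17 (40.5%), beside 41.1%. Thresholded summits under the 2 kb rule reached 7 of the 38 (18.4%), beside 35.4%, and 6 of the 42 (14.3%), beside 22%. Around the first start of each gene, 10% of members had a pooled summit in the 200 bp upstream, beside 18.8% of all genes. From 0 to 199 bp downstream 18.8% of members had one, beside 14.4%, and from 200 to 399 bp 20%, beside 7.5%. These bins were picked after the values were seen. Within 100 bp of an own start, 19 members (23.8%) had a pooled summit, beside 22.9% of all genes.

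**Figure D4:**
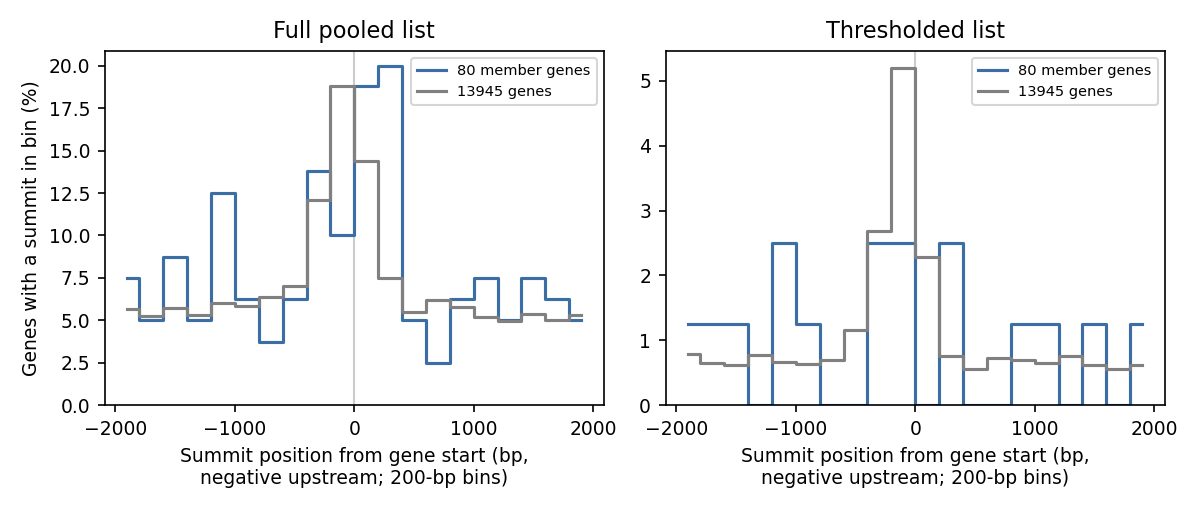
Share of genes with a summit in each 200-bp bin around the first annotated start, for the 80 members (blue) and all 13945 genes (grey), in the full pooled list (left) and the thresholded list (right), on separate scales. In the pooled list the members' highest bin is that from 200 to 399 bp downstream (20%), and that of all genes is the 200 bp upstream (18.8%). The bin from 0 to 199 bp holds 18.8% of members and 14.4% of all genes.

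Other genes of mitochondrial energy metabolism had thresholded peaks at 26 of 66 (39.4%), beside 25.7% of all genes. A thresholded summit within 500 bp of an own start was found for 13 of the 66 genes, beside 1855 of all 13945 genes (13.3%). Gene length was not taken into account for these lists, and neighbouring genes can share a summit. The 66 were matched from 70 symbols, listed by role with earlier results of these data known. Subunits of the chain whose symbols lack the 4 prefixes had 3 of 8, namely blw, the alpha subunit of the ATP synthase, with signal 538 (181 in replicate 2 and 359 in replicate 3) at 3888 bp from its start and nearest to CycB, RFeSP, the Rieske protein of complex III, and levy, of complex IV. In complex II, SdhD had signal 527 (172 and 356), nearest to PTPMT1, and SdhB had a peak too, making 2 of 6. Both cytochrome c genes had peaks, Cyt-c-d with 503 (183 and 317), nearest to CG31808, and Cyt-c-p with 214 (103 and 110).

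Pyruvate dehydrogenase and the citric acid cycle had 5 of 14 genes (35.7%) with a thresholded peak, namely muc, kdn, Idh3g, Scsalpha1 and Fum1. The share over all genes, 25.7%, stands beside this list and each list below, and all of these lists are small. Fum1 has the peak it shares with ND-ASHI, at 485, and Idh3g, a subunit of isocitrate dehydrogenase, had 460 (174 and 277) at 113 bp upstream of its start. Assembly factors had 5 of 11, Ccdc56, Cox10, Cox17, CIA30 and Ttc19, led by CIA30, a complex I assembly factor, with 347 (116 and 234) at 147 bp upstream and nearer to CG7601. Genes of mitochondrial DNA upkeep and transcription had 5 of 10, TFAM, mtTFB1, mtSSB, mtDNA-helicase and mTerf3, with the highest signal of 147 at mtDNA-helicase (41.5 and 86.7), and mtTFB1 and Ccdc56, which are annotated over the same stretch, share a summit. None of the 10 had a thresholded summit within 500 bp of its own start, beside 13.3% of all genes. Carriers and channels of the mitochondrial membranes had 2 of 9, Ucp4A with 124 (23.1 and 99.9) and aralar1. Nuclear regulators had 2 of 6, Dref with 275 (85.2 and 191) at 63 bp from its start, nearer to RpL13, and ERR.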

How the data were processed

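Peaks of Hand-GFP in whole embryos were taken as the authors deposited them. Replicate and pooled lists had been called against a control alignment and compared by IDR to give the thresholded list, per the listing the authors deposited beside them. The signal is the deposited value of the authors' peak caller, not rescaled between lists. For the aligner, caller, settings, IDR threshold and depth, nothing is stated (not given in the sources used here), and lists on dm3 were not used. Chromatin had been sonicated to 200 to 800 bp, per the labels.

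Genes and TSSs came from Ensembl release 115 and sequence from RefSeq Release 6, both in dm6 coordinates, printed from 1; peaks on its 6 main arms ended within their lengths. A summit was assigned to every gene within 2 kb. Locations were promoter (within 500 bp of a TSS), exon, intron and intergenic, in that order. Summits within 100 bp were matched between lists. No statistical test was run, since there was 1 group of 2 replicates. Intervals (Wilson, 95%) cover counting error over genes only. Members and lists were chosen with earlier results of these data known. Named genes were, per complex, the 3 with the strongest thresholded peak, all others with one, the 3 strongest without one, and all with none. In the other lists they were all genes with a thresholded peak. Windows printed were the strongest member peak and, per complex, the strongest peak nearest to the member's own start, with COX7C passed over, and 2 promoters were added after values were seen. Other genes named were chosen after their values were seen. Of 70 symbols in the other lists, 66 were matched, 1 of them (Ccdc56) through a synonym. Assignment and word search were checked on planted data. Python 3.11.15, numpy 2.4.6, scipy 1.17.1 and matplotlib 3.10.9 were used.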

Additional observations from a re-analysis of the deposited data

How the results depend on the processing

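The share of members with a thresholded peak (16.2%) was below that of all genes in 11 of 12 alternatives, which all draw on the same members. The exception was 5 kb around the gene, 38.8% beside 37.3%. For genes over 2000 bp the shares were nearly equal, 33.3% beside 33.6%. The member share was 6.25% for gene bodies alone (all genes 10.2%) and 6.25% within 500 bp of a TSS (all genes 13.3%). With 1 replicate left out it was 17.5% to 18.8%, beside 24.5% to 26.3% of all genes. Complex I (15%) moved to 5% for bodies alone and 37.5% with 5 kb, beside 10.2% and 37.3% of all genes. Complex III, with 1 gene called, moved to 55.6% with 5 kb (all genes 37.3%) and 0% in the stronger 1655 peaks (all genes 15.4%). It was 0% to 11.1% with a replicate left out (all genes 24.5% to 26.3%). Complex IV (12.5%) had 0% within 500 bp of a TSS (all genes 13.3%) and 12.5% without either replicate (all genes 24.5% to 26.3%). The ATP synthase (26.7%) moved to 6.67% for bodies alone, within 500 bp of a TSS and by nearest TSS. All genes had 10.2%, 13.3% and 16.3% there. With a replicate left out it was 26.7% to 33.3%, beside 24.5% to 26.3% of all genes. The promoter share of member peaks (55%) was 75% with 1000 bp, beside 59.9% of all thresholded peaks. With a replicate left out it was 60.9% to 65.2%, beside 49.4% to 50.3%. The weaker-peak share (74.6%) was 41.8% for bodies alone and 44.8% within 500 bp of a TSS, beside 33.6% and 37.5% of all genes without a thresholded peak. Matching within 250 bp raised the peaks found in both replicates from 80% to 95%, beside 91.1% and 98.9% of all thresholded peaks. Windows of other sizes hold other summits by construction. The other alternatives stayed within the main value's interval. Splits by gene length and the start-site shares of copies and other members, pooled and by replicate, were chosen after seeing the data. No paired analysis was possible because there was 1 group. Depth is unknown, and the 9 genes of complex III and 15 of the ATP synthase leave wide intervals.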
